A study of Mus musculus with 18 samples.

Results

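The mouse mitochondrial chromosome carries 37 genes in GENCODE M21, the annotation whose identifiers the count table uses, and all of them have a row among the 55536 genes of the table. They were taken by position on that chromosome and all have symbols starting with mt-. There are 13 protein-coding genes, 2 rRNA genes and 22 tRNA genes, of which 28 are coded on the heavy strand and 9 on the light strand. The RNA came from microglia of the striatum of adult C57BL/6 mice (C57Bl6/J by the methods), the only age given, and was sequenced in 18 samples. Striata were dissociated mechanically and cells that carry CD11b, an integrin chain found on microglia and on other myeloid cells, were held back on a magnetic column, so the cells were enriched in bulk. The groups were 5 WT samples, 5 samples of heterozygote Q175 mice, 3 Tyrobp-/- samples and 5 Q175;Tyrobp-/- samples. Q175 is a knock-in model of Huntington's disease that carries an expanded CAG repeat in its own Htt gene in every cell, and Tyrobp, also called DAP12, encodes a signalling adaptor of microglial receptors whose deletion was constitutive. The study used these groups to see how Q175 changes microglial RNA and how the absence of Tyrobp modifies that change.

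Mitochondrial DNA is transcribed from both strands into long precursors that span nearly the whole circle. The tRNAs lie between most of the mRNAs and rRNAs, and their excision releases the neighbouring transcripts. Every mRNA encodes a subunit of the respiratory chain or of ATP synthase, the remaining subunits are encoded in the nucleus, and the rRNAs and tRNAs serve the organelle's own ribosome. Cells with many mitochondria, such as neurons and astrocytes, are rich in these transcripts.

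The libraries held between 11260410 and 29771983 counts. Tyrobp was at 196 to 475 CPM (counts relative to the library's total, scaled by edgeR's TMM factors) in WT and 213 to 368 in Q175, against 17.5 to 21.3 in Tyrobp-/- and 9.89 to 14.6 in Q175;Tyrobp-/-. All 20 microglial markers on the list used were above 1 CPM in every sample. Astrocyte markers were present too, with none of 15 at 0, and their summed level was 739 to 1296 CPM in WT, 1324 to 7289 in Q175, 838 to 5119 in Tyrobp-/- and 778 to 4191 in Q175;Tyrobp-/-. Replicate 14 of Q175 and replicate 20 of Tyrobp-/- stood apart from the other libraries of their groups, and results that rest on them are given with and without them. In these bulk samples, fewer cells of a type and less RNA per cell cannot be told apart.

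The mitochondrial genes took a small and variable part of each library. In WT they made up 1.31%, 0.850%, 0.901%, 0.620% and 0.727% of the counts in replicates 1, 2, 6, 7 and 8. In Q175 they made up 1.37%, 1.18%, 1.27%, 7.26% and 2.36% in replicates 3, 4, 9, 14 and 17. One WT sample lay within the range of the Q175 samples and the other four lay below it. In Tyrobp-/- the share was 0.848%, 1.31% and 6.12% in replicates 15, 19 and 20, and in Q175;Tyrobp-/- it was 2.83%, 1.02%, 0.766%, 2.09% and 2.58% in replicates 5, 11, 12, 13 and 16. WT samples averaged 0.882% ± 0.265 (SD, n = 5) and Q175 samples 2.69% ± 2.60 (SD, n = 5). Tyrobp-/- samples averaged 2.76% ± 2.92 (SD, n = 3) and Q175;Tyrobp-/- samples 1.86% ± 0.926 (SD, n = 5). Wilson 95% intervals, which cover counting error only, were narrow, at most from 7.24% to 7.27% in Q175 replicate 14. Without its highest library, the mean fell to 1.55% ± 0.550 in Q175 (SD, n = 4) and to 1.08% ± 0.328 in Tyrobp-/- (SD, n = 2).

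**Figure D1:**
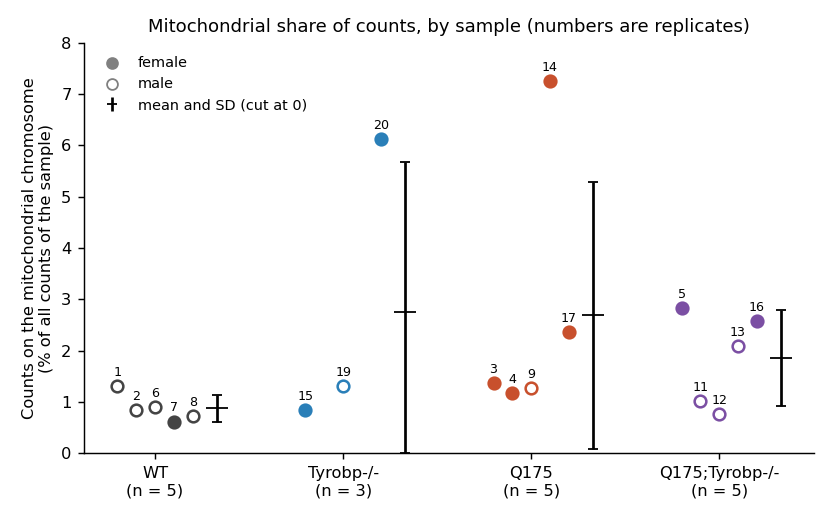
Percent of each sample's counts on the 37 mitochondrial genes, by genotype, with replicate numbers beside the points. Filled points are females, open points are males, and bars show mean and SD; replicate 14 of Q175 (7.26%) and replicate 20 of Tyrobp-/- (6.12%) lie far above the other 16 samples.

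Sex was unevenly spread over the groups. WT held 1 female and 4 males, Q175 held 4 females and 1 male, Tyrobp-/- held 2 females and 1 male, and Q175;Tyrobp-/- held 2 females and 3 males. The median mitochondrial share was 2.36% in the 9 females and 1.02% in the 9 males. Among males the share was 0.727% to 1.31% in WT and 1.27% in the 1 Q175 sample, and among females it was 0.620% in the 1 WT sample and 1.18% to 7.26% in Q175.

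Of the 37 genes, 34 had a count in some sample and 25 reached 1 CPM in some sample, in each of the comparisons below. These 25 were 12 mRNAs, both rRNAs and 11 tRNAs (mt-Tl1, mt-Ti, mt-Tq, mt-Tm, mt-Tw, mt-Ta, mt-Ty, mt-Tg, mt-Te, mt-Tt and mt-Tp), and the tests below cover only them. mt-Atp8, which encodes a subunit of ATP synthase, had 58 counts in all, 0 in each of the 5 WT samples, and was not tested. The tRNA genes mt-Tv, mt-Td and mt-Tk had 0 counts in all 18 samples, where the 3 counts that a count of 0 allows come to 0.00907 CPM over all libraries. That limit covers only reads assigned to these genes, and nuclear copies of mt-Td and mt-Tk outside annotated transcripts were not searched for. The other 8 untested tRNA genes, mt-Tf, mt-Tn, mt-Tc, mt-Ts1, mt-Tr, mt-Th, mt-Ts2 and mt-Tl2, had between 2 and 67 counts in all.

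The mRNAs held 80.4% of the 6551694 mitochondrial counts, the rRNAs 19.3% and the tRNAs 0.268%. mt-Co1, the catalytic core of complex IV (cytochrome c oxidase), held 54.7% of them on its own. It was followed by mt-Cytb, the mitochondrially encoded subunit of complex III, with 12.03%, by mt-Rnr1, the rRNA of the small ribosomal subunit, with 10.8%, and by mt-Rnr2, the rRNA of the large subunit, with 8.48%. The methods describe rRNA depletion in a section on whole-striatum and microglial libraries together, so the rRNA counts do not measure rRNA abundance. How well the library preparation captured each mRNA, tRNA and rRNA was not measured. Counts and levels of different genes therefore need not reflect their abundances in the cells. Light-strand genes held 0.699%, most of it on mt-Nd6 (0.631%), a complex I subunit and the sole mRNA coded on that strand.

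Levels of different genes were compared per kb of annotated length, as the mean CPM per kb over 18 samples. mt-Co1 stood at 7427, mt-Rnr1 at 2392, mt-Cytb at 2192 and mt-Rnr2 at 1121. Among the complex I subunits, mt-Nd1 stood at 1260, mt-Nd4 at 450, mt-Nd2 at 304, mt-Nd6 at 255 and mt-Nd5 at 246, while mt-Nd3 was at 25.6 and mt-Nd4l at 3.39. The other complex IV subunits, mt-Co2 and mt-Co3, were at 66.8 and 48.3, and mt-Atp6, a membrane subunit of ATP synthase, was at 9.67. Among the tRNAs, mt-Tw was highest at 317, followed by mt-Ti at 142, mt-Tp at 95.9 and mt-Tl1 at 63.2. Levels of genes next to each other on the map thus differed widely, as did samples within each gene. For neighbours in this order of levels, the ranges over samples overlap, but all genes were measured in the same libraries and the difference of neighbours within a library was not tested.

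**Figure D2:**
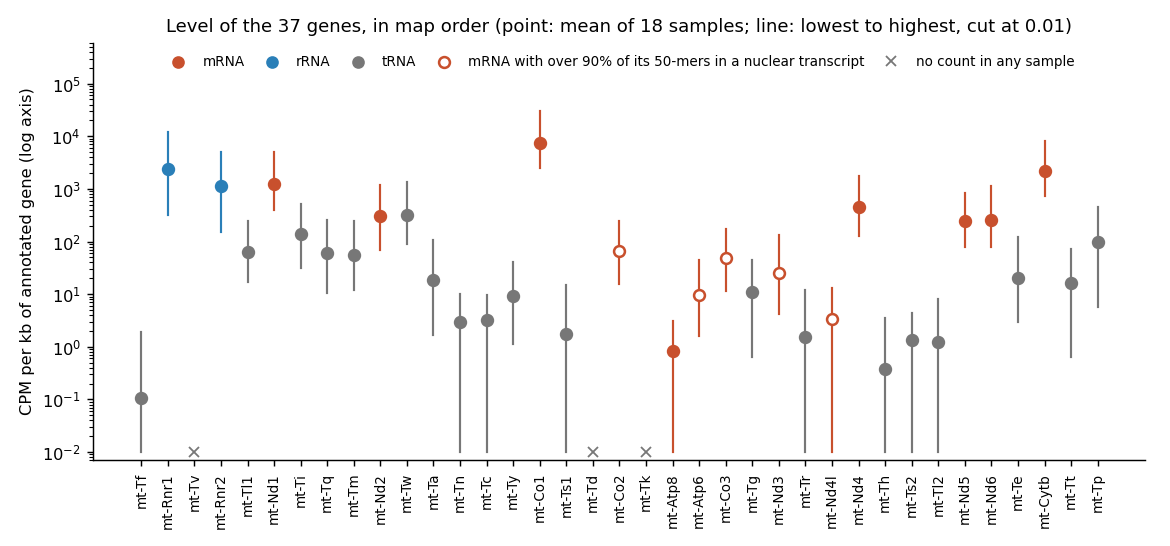
Mean CPM per kb of annotated gene over 18 samples (log axis) for the 37 mitochondrial genes in map order, with lines from the lowest to the highest sample cut at 0.01. mt-Co1 is highest at 7427, and the open points, mRNAs with over 90% of their 50-base stretches in a nuclear transcript, lie between 3.39 and 66.8.

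Part of the mitochondrial sequence also exists in the nuclear genome, and reads that match both places equally cannot be assigned by sequence. How multi-mapping reads were treated is not given in the sources used here. All 50-base stretches of each gene were searched in 141767 annotated transcripts, and 15 genes outside the mitochondrial chromosome shared at least 1. Of these, 7 are pseudogenes on the minus strand of chromosome 1 that together match mt-Co1, mt-Co2, mt-Atp6, mt-Co3, mt-Nd3, mt-Nd4l and mt-Nd4. Nuclear sequence outside annotated transcripts, such as that between these pseudogenes, was not searched. On the mitochondrial map, mt-Ts1, mt-Td, mt-Tk, mt-Atp8, mt-Tg and mt-Tr lie between genes that the pseudogenes match. Whether those 6 have nuclear copies is not known here, so their low or absent counts may not reflect their levels. The share of 50-base stretches found in a nuclear transcript was 100% for mt-Co2, 99.9% for mt-Co3, 99.5% for mt-Atp6, 98.8% for mt-Nd4l and 98.0% for mt-Nd3. It was 62.2% for mt-Nd4, 51.1% for mt-Co1, 8.19% for mt-Nd2, 7.61% for mt-Nd5 and 0% for mt-Nd1, mt-Nd6 and mt-Cytb.

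The sequences below, from the annotated transcripts of GENCODE M21 on build GRCm38, show where these genes and their copies share bases. In mt-Co1 and its pseudogene Gm29216, capitals mark the start of the 479-base run that is identical in both, which covers bases 1067 to 1545 of mt-Co1, and the lower-case bases lie before that run. mt-Co1 also shares 411 stretches of 50 bases with Gm13340, a pseudogene on chromosome 2 that held 17322 counts in all. In mt-Nd4 and Gm28439, capitals mark the end of the pseudogene, after which mt-Nd4 continues alone. The 60 bases printed of mt-Atp6 and Gm10925 are identical, and capitals mark the 43 bases that the annotation also gives to mt-Atp8.
mt-Co1 (chrM:6374-6423, plus strand): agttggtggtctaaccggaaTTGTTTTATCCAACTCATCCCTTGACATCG
Gm29216 (chr1:24616155-24616197, minus strand): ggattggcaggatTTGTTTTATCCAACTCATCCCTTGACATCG
mt-Nd4 (chrM:11013-11062, plus strand): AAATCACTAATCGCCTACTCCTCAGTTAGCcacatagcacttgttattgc
Gm28439 (chr1:24611535-24611564, minus strand): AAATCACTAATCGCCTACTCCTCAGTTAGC
mt-Atp6 (chrM:7927-7986, plus strand): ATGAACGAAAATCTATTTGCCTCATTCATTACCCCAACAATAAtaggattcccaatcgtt
Gm10925 (chr1:24614592-24614651, minus strand): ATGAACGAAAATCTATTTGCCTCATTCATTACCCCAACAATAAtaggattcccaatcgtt

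The mRNAs that are almost wholly shared had low counts in the table, and their pseudogenes had counts of like size. Gm10925 had 5954 counts in all against 2013 for mt-Atp6, Gm28437 had 14723 against 11299 for mt-Co3, and Gm28661 had 10906 against 13845 for mt-Co2. In contrast, Gm29216 had 24247 against 3584671 for mt-Co1, and Gm28439 had 1971 against 198328 for mt-Nd4. The 5 mRNAs with over 90% of their stretches shared had levels of 3.39 to 66.8 CPM per kb with a median of 25.6. The 5 mRNAs with under 10% shared, leaving out mt-Atp8, had levels of 246 to 2192 with a median of 304. mt-Atp8 had 0% of its stretches in another annotated transcript, yet it had the lowest level of the mRNAs, 0.845. With it, the median of the 6 was 279. Levels of the first of these sets are therefore uncertain, while differences between samples within 1 gene rest on the same sequence in every sample. Over 18 samples the log2 levels of each pseudogene and its mitochondrial gene correlated with r between 0.809 (Gm29216) and 0.993 (Gm28437), a description of libraries that share their reads.

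The tRNA genes are short, and 9 pairs of mitochondrial genes overlap in the annotation, so a read can fall on more than 1 gene. The methods describe non-directional libraries, again in the section on whole-striatum and microglial libraries together. In such libraries, reads of overlapping genes on opposite strands cannot be told apart. This holds for mt-Nd5 and mt-Nd6 over 14 bases, for mt-Ti and mt-Tq over 3 bases and for mt-Co1 and mt-Ts1 over 3 bases. Any transcript of the opposite strand is likewise counted with mt-Nd6 and the light-strand tRNAs. The 3 tRNA genes whose values in each sample are given below are printed in full from GENCODE M21 on GRCm38, 5′ to 3′ as DNA, with capitals for bases that the annotation also gives to a neighbouring gene. The first carries isoleucine, the next methionine and the last proline.
mt-Ti (chrM:3706-3774, plus strand): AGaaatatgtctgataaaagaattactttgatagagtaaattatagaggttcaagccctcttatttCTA
mt-Tm (chrM:3845-3913, plus strand): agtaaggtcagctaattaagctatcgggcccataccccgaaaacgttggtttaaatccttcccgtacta
mt-Tp (chrM:15356-15422, minus strand): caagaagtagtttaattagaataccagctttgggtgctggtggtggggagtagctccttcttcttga

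The question of the Q175 against WT comparison is whether Q175 microglia differ from WT microglia where Tyrobp is intact. All 25 mitochondrial genes tested had higher estimates in Q175, from 1.15 on the log2 scale for mt-Ta to 2.79 for mt-Te, against a median of -0.02 over all genes tested. The median over the 12 mRNAs was 1.73. None passed edgeR's quasi-likelihood test at a Benjamini-Hochberg FDR of 0.1, where 0% of all 18266 genes tested were called and the smallest adjusted p among the mitochondrial genes was 0.345. At an unadjusted p under 0.05 edgeR gave 23 of the 25, against 6.24% of all genes. DESeq2 at the same FDR called 13 of the 25, all higher in Q175, against 1.28% of all genes, and gave no p for mt-Tq, mt-Tw and mt-Te.

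The 13 genes that passed DESeq2 were 6 subunits of complex I (mt-Nd1, mt-Nd2, mt-Nd3, mt-Nd4, mt-Nd5 and mt-Nd6), mt-Cytb of complex III, mt-Atp6 of ATP synthase, and the tRNA genes mt-Tl1, mt-Ti, mt-Tm, mt-Tg and mt-Tp. The 7 complex I subunits had log2 fold changes in edgeR from 1.65 (mt-Nd1) to 2.36 (mt-Nd2), and mt-Nd4l, at 1.77, was the one of them that did not pass DESeq2. Of the 3 subunits of complex IV, mt-Co2 at 1.21 and mt-Co3 at 1.23 had the lowest values of the tested mRNAs. Both are almost wholly shared with nuclear copies. The third, mt-Co1, at 1.68, lay above mt-Nd1 and mt-Cytb (1.66). None of the 3 passed DESeq2. The rRNAs had values of 1.92 (mt-Rnr1) and 1.99 (mt-Rnr2), and neither passed. Whether the complexes differed from each other was not tested.

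mt-Nd2 stood at 122, 85.0, 75.3, 92.8 and 72.4 CPM in the WT samples and at 190, 108, 209, 1227 and 488 CPM in the Q175 samples. Only Q175 replicate 4 lay below the highest WT sample. The log2 fold change was 2.36 ± 0.562 (SE), with an adjusted p of 0.345 in edgeR and of 0.0103 in DESeq2.

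mt-Atp6 was at 3.80, 2.15, 1.72, 1.35 and 1.08 CPM in WT and at 7.495, 7.48, 2.90, 18.2 and 6.77 in Q175. Again a single Q175 sample, replicate 9, lay below a single WT sample, replicate 1. The log2 fold change was 2.11 ± 0.474 (SE), with the smallest unadjusted p of the 25 genes (0.000655, edgeR) and an adjusted p of 0.0103 in DESeq2. Its near-identical pseudogene Gm10925 had a log2 fold change of 1.67 ± 0.552 (SE) and did not pass either test.

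mt-Nd6 was at 75.8, 50.2, 55.6, 45.3 and 58.5 CPM in WT and at 82.9, 91.6, 102, 468.6 and 159 in Q175, so the groups did not overlap. Its log2 fold change was 1.71 ± 0.447 (SE), with an adjusted p of 0.0274 in DESeq2.

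The tRNA genes mt-Ti, mt-Tm and mt-Tp had few counts, and none of the 3 overlapped between the groups. mt-Ti was at 5.09, 3.08, 3.97, 2.17 and 2.16 CPM in WT and at 7.80, 7.28, 5.17, 36.2 and 13.7 in Q175. mt-Tm was at 1.90, 0.872, 2.25, 1.43 and 0.812 in WT and at 2.85, 2.56, 3.86, 16.6 and 4.72 in Q175. mt-Tp was at 2.41, 1.34, 3.08, 1.35 and 0.379 in WT and at 5.85, 5.71, 3.30, 30.05 and 5.15 in Q175. The log2 fold changes were 2.13 ± 0.510, 2.12 ± 0.544 and 2.59 ± 0.660 (SE), with adjusted p of 0.0127, 0.0237 and 0.0133 in DESeq2.

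The members given sample by sample so far were picked for the smallest p in this comparison. The next 3 were picked for the highest mean counts, so the sets are not compared for evenness. mt-Co1 was at 7775, 4697, 5830, 3826 and 3907 CPM in WT and at 7930, 7768, 6383, 46689 and 11998 in Q175. mt-Cytb was at 1471, 1053, 1170, 916 and 1008 in WT and at 1895, 1637, 1615, 9312 and 2811 in Q175. mt-Rnr1 was at 1649, 794, 1010, 358 and 308 in WT and at 1550, 1280, 1271, 8648 and 2295 in Q175. The groups did not overlap in mt-Cytb, whereas WT replicate 1 lay above 2 Q175 samples in mt-Co1 and above 3 in mt-Rnr1. Their log2 fold changes were 1.68 ± 0.539, 1.66 ± 0.474 and 1.92 ± 0.621 (SE), and of these only mt-Cytb passed DESeq2, with an adjusted p of 0.0395.

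Every Q175 sample was above every WT sample in 8 of the 25 genes (mt-Ti, mt-Tq, mt-Tm, mt-Tw, mt-Tg, mt-Nd6, mt-Cytb and mt-Tp), against 0.788% of all genes tested. Replicate 14 of Q175 and replicate 20 of Tyrobp-/- were the highest libraries of the 18 in all 25 genes, replicate 14 leading in 12 and replicate 20 in 13. Without replicate 14, all 23 mitochondrial genes that still reached 1 CPM kept positive estimates in Q175 against WT, from 0.39 to 1.61 on the log2 scale. Of these, 18 had an unadjusted p under 0.05 in edgeR, none had an adjusted p under 0.1, and DESeq2 called 5. Over all 18148 genes tested there, 681 had an unadjusted p under 0.05 in edgeR and DESeq2 called 83.

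**Figure D3:**
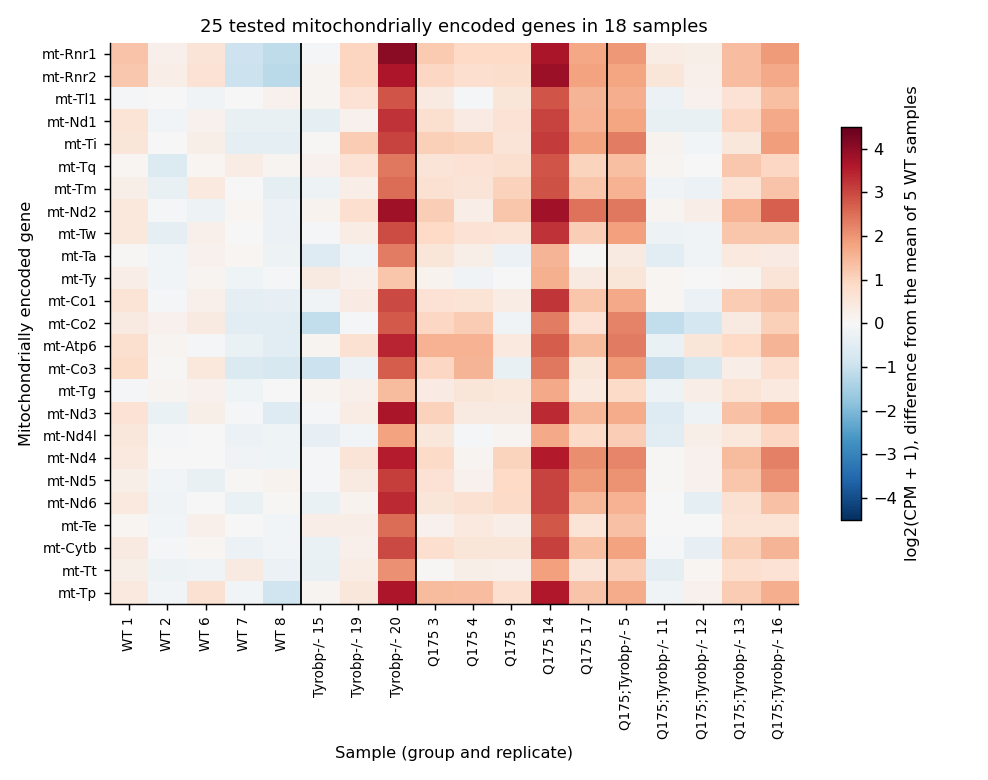
Difference of log2(CPM + 1) from the mean of the 5 WT samples for the 25 tested mitochondrial genes (rows, map order) in 18 samples (columns, by group and replicate). The genes rise and fall together by library, and the 2 darkest columns are Tyrobp-/- replicate 20 and Q175 replicate 14.

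The other genes that serve the same organelle moved less. Of 79 listed nuclear genes for respiratory chain and ATP synthase subunits, 77 were tested in Q175 against WT. Their median log2 fold change was 0.27, 71 were positive, 2 had an unadjusted p under 0.05, both higher, and 0 passed edgeR or DESeq2. The nuclear subunits of complex IV had the highest median, 0.63 over 12 genes, and those of complex II, which has no mitochondrially encoded subunit, had a median of 0.035 over 4. Of 33 tested genes for transcription, processing and replication of mitochondrial nucleic acid, such as Polrmt, the RNA polymerase of the organelle, and Tfam, its DNA-packaging transcription factor, 1 had an unadjusted p under 0.05 and 0 passed edgeR or DESeq2, with a median of -0.11. The 7 chromosome 1 pseudogenes had a median of 1.25, between 0.76 and 1.67, and 1 of them passed DESeq2.

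Markers of several other cell types also had higher estimates in Q175 than in WT, while those of some did not. The median log2 fold change was 3.20 for ependymal or choroid plexus markers and 0.95 for oligodendrocyte precursors. It was 0.61 for medium spiny neurons, 0.43 for oligodendrocytes and 0.34 for pan-neuronal genes. Endothelial markers had a median of -0.29 and those of monocytes or neutrophils -0.40. Border-associated macrophage markers had a median of 0.84, with 5 of 6 positive and 0 at an unadjusted p under 0.05 in edgeR. The median was -0.0014 for mural markers and 0.35 for the 2 tested red blood cell markers. Of the 15 astrocyte markers, 15 had positive estimates in Q175 against WT with a median log2 fold change of 1.27, 14 had an unadjusted p under 0.05 and 8 passed DESeq2, while the 20 microglial markers had a median of -0.08 and 0 at an unadjusted p under 0.05. With the astrocyte marker level as a term, the median of the 12 mitochondrial mRNAs was 0.12, 15 of 25 genes were positive and 0 had an unadjusted p under 0.05 in edgeR. With a score of astrocyte, neuronal and oligodendrocyte markers as a term, the median was -0.45 and 0 had an unadjusted p under 0.05. With sex as a term, all 25 stayed positive, 4 had an unadjusted p under 0.05 in edgeR and DESeq2 called 0 under either of sex and the score. Over all 18266 genes, 246 had an unadjusted p under 0.05 in edgeR with sex, 352 with the score and 276 with the astrocyte level, and DESeq2 called 0 with sex or the score. Sex and the marker levels differ between the groups themselves, so these terms and the genotype cannot be told apart fully.

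**Figure D4:**
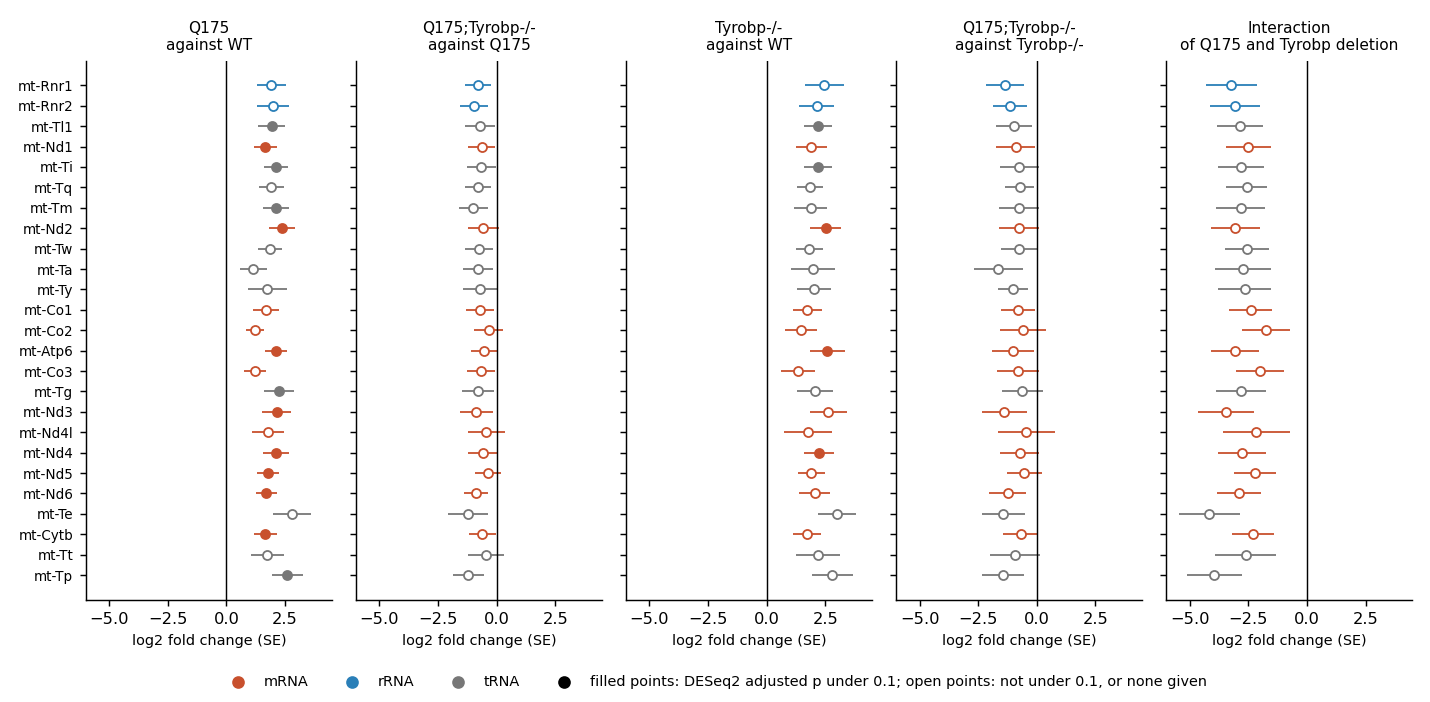
Log2 fold change with its SE (edgeR) of the 25 tested mitochondrial genes in the 4 comparisons and the interaction, with filled points where DESeq2's adjusted p was under 0.1. All 25 lie right of 0 in Q175 against WT and in Tyrobp-/- against WT, and left of 0 in the other 3 panels.

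Tyrobp-/- against WT asks for the change with the deletion alone, and it uses the same WT samples. All 25 genes had positive estimates, from 1.35 (mt-Co3) to 2.99 (mt-Te), and the median of the mRNAs was 1.90. edgeR called 0, where it called 0.0222% of all genes, and 21 had an unadjusted p under 0.05, against 6.82%. DESeq2 called 5 (mt-Tl1, mt-Ti, mt-Nd2, mt-Atp6 and mt-Nd4), against 0.932% of all genes, and gave no adjusted p for 6. The 3 Tyrobp-/- samples were at 4497, 6430 and 39479.5 CPM for mt-Co1, at 896, 1298 and 8687 for mt-Cytb and at 99.0, 150 and 1257 for mt-Nd2, in the order of replicates 15, 19 and 20. Replicate 15 lay within or below the WT range in all 3 and replicate 19 lay within it in mt-Co1 and mt-Cytb. Without replicate 20, 19 genes could be tested, 16 were positive, the median of the mRNAs was 0.14, and 0 had an unadjusted p under 0.05 in edgeR or an adjusted p under 0.1 in DESeq2. The edgeR rate over all genes in that refit is not given here, so its 0 is not read as a result about the members. Astrocyte markers had positive estimates in 15 of 15 with a median of 1.07, and the summed level in replicate 20 was the highest of its group.

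Q175;Tyrobp-/- against Q175 asks whether the deletion changes microglia that carry Q175. All 25 estimates were negative, from -0.33 (mt-Co2) to -1.22 (mt-Te), with a median of -0.59 over the mRNAs. No mitochondrial gene had an adjusted p under 0.1 in edgeR or DESeq2 or an unadjusted p under 0.05 in edgeR, where 0.0111%, 0.227% and 8.01% of all genes did, and DESeq2 gave no adjusted p for 1. mt-Co1 was at 16321, 5386, 4207, 10975 and 12443 CPM in Q175;Tyrobp-/- replicates 5, 11, 12, 13 and 16, of which 3 lay above at least 3 of the 5 Q175 samples while the other 2 lay below all of them. Its log2 fold change was -0.71 ± 0.583 (SE). mt-Cytb was at 3889, 1072, 857, 2330 and 3231 CPM and mt-Nd2 at 462, 95.9, 109, 260 and 575, with the same 2 replicates, 11 and 12, at the bottom. Without replicate 14 of Q175, 17 of 24 estimates were positive and the median of the mRNAs was 0.17. The astrocyte marker level in this group was split in the same way, at 404 and 409 (geometric mean of normalized counts plus 1) in these 2 replicates and at 1230 to 1969 in the other 3.

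Q175;Tyrobp-/- against Tyrobp-/- asks for the change with Q175 where Tyrobp is absent. All 25 estimates were negative, from -0.44 (mt-Nd4l) to -1.63 (mt-Ta), with a median of -0.77 over the mRNAs. edgeR called 0 mitochondrial genes at an FDR of 0.1, as it did of all genes (0%), and 0 at an unadjusted p under 0.05, against 13.2% of all genes, while DESeq2 called 0, against 3.84%, with no adjusted p for 6. Without replicate 20 of Tyrobp-/- the sign turned: all 24 genes tested were positive, the median of the mRNAs was 1.13, and 0 had an unadjusted p under 0.05 in edgeR. The rate over all genes in that refit is not given here. The 77 nuclear subunit genes had a median of -0.51 in this comparison, and 24 had an unadjusted p under 0.05, all lower.

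The interaction of Q175 and Tyrobp deletion, the difference between the Q175 effect without and with Tyrobp, was negative in all 25 genes, from -1.75 (mt-Co2) to -4.17 (mt-Te), with a median of -2.45 over the mRNAs. In edgeR 0 had an adjusted p under 0.1, as of all genes (0%), every one having an adjusted p of 0.716, and 21 had an unadjusted p under 0.05, against 6.01%. DESeq2 called 0, against 0.0107%. Without replicate 20 of Tyrobp-/- 0 had an unadjusted p under 0.05, as with sex as a term, and without both highest libraries 9 of 24 estimates were positive and the median of the mRNAs was 0.058. The rates over all genes in these refits are not given here. The astrocyte markers also had negative interaction estimates in 15 of 15, with a median of -1.25 and 5 at an unadjusted p under 0.05.

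The make-up of the mitochondrial counts does not depend on scaling between libraries, and it varied less than their level. mt-Co1 held between 50.8% and 60.8% of the mitochondrial counts of a sample, the tRNAs 0.194% to 0.322% and the light-strand genes 0.544% to 0.964%. The rRNAs held 8.57% to 21.5% in WT (15.4% ± 5.68, SD, n = 5), 16.95% to 20.2% in Q175, 16.6% to 23.6% in Tyrobp-/- and 15.6% to 19.6% in Q175;Tyrobp-/-, so the WT samples spread most and reached across most of the range of the other groups. The ratio of mt-Rnr1 to mt-Rnr2 counts was between 1.04 and 1.60. Counts of mt-Nd2 were 1.29% to 4.62% of those of mt-Co1, averaging 1.79% ± 0.420 over the 5 WT samples (SD), 2.75% ± 1.0007 over the 5 Q175 samples, 2.57% ± 0.534 over the 3 Tyrobp-/- samples and 2.84% ± 1.07 over the 5 samples with both.

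The mitochondrial genes rose and fell together from library to library. Over 18 samples the 300 pairs of the 25 genes had a median Pearson r of 0.917 on the log2 scale, from 0.709 (mt-Ty with mt-Co3) to 0.996. Without the 2 highest libraries the median was 0.809 over 16 samples, and the lowest pair had 0.202.

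Set against marker levels over the same 18 samples, the mean log2(CPM + 1) of the 13 mRNAs was most closely related to the astrocyte level, with r = 0.908 and rho = 0.897. With every value centred on its group mean r was 0.884, and without the 2 samples farthest from the median astrocyte level, which are the 2 highest libraries, it was 0.852. The pan-neuronal level had r = 0.805 and rho = 0.711, and 0.597 without these 2 libraries. Other lists had lower values, 0.646 for oligodendrocyte precursors, 0.520 for medium spiny neurons, 0.517 for border-associated macrophages, 0.485 for oligodendrocytes, 0.467 for endothelial cells, 0.154 for monocytes or neutrophils, 0.150 for mural cells, 0.126 for ependymal or choroid plexus cells and 0.022 for red blood cells. Microglial markers had r = -0.285. Both axes come from the same libraries and the same scaling, and these values describe 18 samples in 4 groups. The part of other cells in the differences between the groups was not tested.

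Single members gave the same picture. Their r with the astrocyte level was between 0.707 (mt-Ty) and 0.923 (mt-Tw) over the 25 genes, and their r with the microglial level was between -0.580 (mt-Co3) and -0.087 (mt-Nd2). The astrocyte level was 428 to 676 in the 5 WT samples, 891 to 2646 in Q175 with replicate 14 at the top, and 416, 776 and 2280 in Tyrobp-/- with replicate 20 at the top. Total counts had r = 0.067 with the mitochondrial mRNA level, nuclear-retained RNAs such as Malat1 had r = -0.090, and the share of counts on the rRNA-like genes Gm26917 and Gm42418 had r = 0.365.

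**Figure D5:**
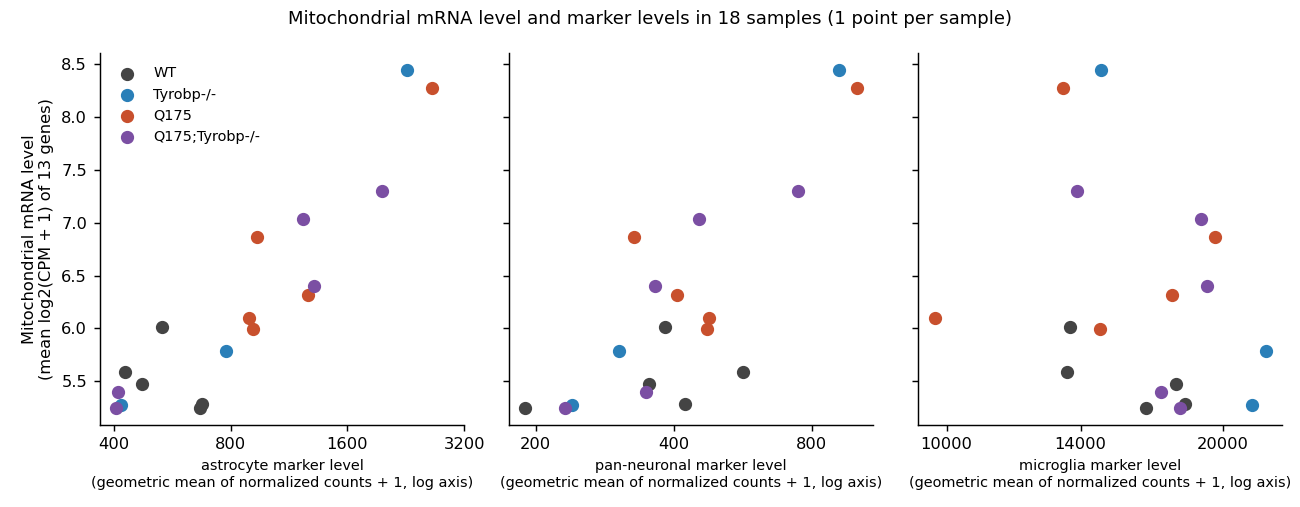
Mean log2(CPM + 1) of the 13 mitochondrial mRNAs against the level of astrocyte, pan-neuronal and microglial markers (geometric mean of normalized counts plus 1, log axes), 1 point per sample coloured by group. The points climb with the astrocyte level (r = 0.908) and the pan-neuronal level (r = 0.805), and show no such climb with the microglial level (r = -0.285).

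Among 13491 nuclear genes with at least 1 CPM in all 18 samples, those most like the mean of the mitochondrial mRNAs by Pearson r over 18 samples were Psd3 (0.985), Mfap3l (0.971), Lix1 (0.970), Mt2 (0.969), S100a1 (0.969), Bmpr1b (0.966), Tmem56 (0.966), Luzp2 (0.965), Olfm1 (0.965) and Aqp4 (0.964). Aqp4, the water channel of astrocyte end-feet, is the only one of them on a cell type list, that of astrocytes. For the mean level of the nuclear subunits of each complex, r was between 0.599 for complex II and 0.877 for complex IV. These values lie below those of the 10 genes above, which were picked for high r. With values centred on group means, r was 0.892 for complex IV and 0.884 for the astrocyte level. Without the 2 highest libraries it was 0.689 for complex IV and 0.852 for the astrocyte level. The genes for mitochondrial RNA and DNA upkeep had r = 0.063 over 18 samples.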

How the data were processed

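Per the labels and methods, RNA of CD11b-enriched striatal cells was sequenced with SMART-Seq v4. The methods also name non-directional libraries and rRNA depletion, in a section on whole-striatum and microglial libraries together. They do not say which of the libraries these steps apply to. The authors used STAR on GRCm38 and then featureCounts, and the deposited values are raw counts per gene. Each sample held 1 striatum by the methods and 2 by the labels. The methods describe dissociation mouse by mouse, while the labels name no animal for a sample, so p-values measure the spread between these samples. A further 2 columns of the table match no labelled sample and were left out. Symbols, positions and lengths came from GENCODE M21, which holds 55536 of 55536 identifiers.

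In each comparison edgeR 4.0.16 (TMM, quasi-likelihood, R 4.3.3) tested the genes that reached 1 CPM in any of its samples, fitted on those samples only, the interaction on all 18, without covariates, with Benjamini-Hochberg adjustment over all genes and an FDR of 0.1. The SE is the log2 fold change over the square root of F. DESeq2 1.42.0 was the alternative, beside other scalings, filters and terms and each sample left out. Both tools were tested on simulated data. The depth limits precision, and since no molecular identifiers were used, reads are not independent molecules.

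The members, lists and tests were chosen with earlier results of these data known. All mRNAs, rRNAs and tested tRNAs are named. Values in every sample are given for the 6 members with the smallest p in Q175 against WT and the 3 with the highest mean. Outside them, the 10 nuclear genes most alike and some of the nuclear copies are named.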

Additional observations from a re-analysis of the deposited data

Results flagged for a closer look

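Dixon's 95% limit for 5 samples was applied to 30 sets of samples, the mitochondrial share and 9 genes in each of the groups of 5. A sample lay beyond it in 8 sets. Sets of WT and of Q175;Tyrobp-/- held no such sample. All 8 were sets of the Q175 group, in which replicate 14 lay farther from the other samples than the limit. Its share was 7.26% of counts, and its levels were 46689 CPM for mt-Co1, 9312 for mt-Cytb, 8648 for mt-Rnr1, 468.6 for mt-Nd6, 36.2 for mt-Ti, 30.05 for mt-Tp and 16.6 for mt-Tm. Chance flags about 1 in 20 such sets, and these 8 come from 1 library and are not independent. The same library had the highest astrocyte marker level of all samples, 2646 (geometric mean of normalized counts plus 1), and its part in these values was not tested. The group of 3 Tyrobp-/- samples was too small for this limit.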

How the results depend on the processing

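No paired analysis was possible because the groups share no replicate numbers. The number of mitochondrial genes called was 0 in edgeR in every comparison and alternative, while DESeq2 called 13 in Q175 against WT and 5 in Tyrobp-/- against WT. The DESeq2 fits with terms or without a sample, the fits with the astrocyte level and those without both highest libraries were added after seeing the data. With sex or the marker score as a term DESeq2 called 0 and 0 in both of these comparisons. In Q175 against WT these fits also called 0 of all genes. For Tyrobp-/- against WT the calls over all genes with these terms are not given here. Its 0 calls are therefore not read as a result about the members. With the score DESeq2 called 2 of 25 in Q175;Tyrobp-/- against Tyrobp-/-, where 4 had no adjusted p. The calls over all genes in that last fit are not given here, so these 2 are not read as a result about the members. Leaving out each sample gave 5 to 15 DESeq2 calls in Q175 against WT. These fits called 74 (without WT replicate 2) to 395 (without Q175 replicate 17) of all genes. Calls of members were fewest without WT replicate 2 or Q175 replicate 14. They were also under 9 without WT replicates 7 and 8 (8 each) and Q175 replicate 17 (7). Without Q175 replicate 17, DESeq2 gave no adjusted p for 12 of the 25 members, against 3 or 4 members in the other fits. In Tyrobp-/- against WT, leaving out each sample gave 0 to 19 calls. These fits called 46 (without WT replicate 1) to 1074 (without Tyrobp-/- replicate 20) of all genes. The members called were 2 and 1 without WT replicates 1 and 2, 3 and 1 without 6 and 7, and 0 without WT replicate 8. Without Tyrobp-/- replicates 15, 19 and 20 they were 19, 15 and 0.

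With the score as a term, the median log2 fold change of the mRNAs was -0.45 in Q175 against WT and 0.34 in Tyrobp-/- against WT, it was 0.082 in Q175;Tyrobp-/- against Q175, and it was -0.21 for the interaction. With the astrocyte level it was 0.12 in Q175 against WT, 0.19 in Tyrobp-/- against WT, and the interaction was -0.22. For the interaction it was -1.25 with sex and 0.058 without both highest libraries. Leaving out each sample gave medians of 1.01 to 1.93 in Q175 against WT, 0.14 to 2.36 in Tyrobp-/- against WT, -0.98 to 0.17 in Q175;Tyrobp-/- against Q175, -1.23 to 1.13 in Q175;Tyrobp-/- against Tyrobp-/- and -2.92 to -0.75 for the interaction; the ends nearest 0 or past it come without replicate 14 or replicate 20.

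Of 557 values of single members, a set that holds only some members in each comparison, 29 changed sign. Over all tested members, 3 of 25 stayed positive with the score in Q175 against WT, and all 24 were positive without Tyrobp-/- replicate 20 in Q175;Tyrobp-/- against Tyrobp-/-. With the score in Q175 against WT they were mt-Nd2 -0.12, mt-Ti -0.25, mt-Tp -0.00017, mt-Nd6 -0.38, mt-Co1 -0.88, mt-Cytb -0.60, mt-Rnr1 -0.64, mt-Ta -0.91, mt-Te -0.84, mt-Nd1 -0.59, mt-Co2 -0.45 and mt-Rnr2 -0.95. With the astrocyte level they were mt-Co1 -0.26, mt-Cytb -0.083, mt-Ta -0.75, mt-Te -0.22 and mt-Rnr2 -0.10 there, and mt-Nd2 0.027 in Q175;Tyrobp-/- against Q175. In that comparison the score gave mt-Co1 0.090, mt-Cytb 0.097 and mt-Nd2 0.23, and leaving out each sample gave -1.01 to 0.20, -0.93 to 0.18 and -0.94 to 0.26, the positive values being those without Q175 replicate 14. In Q175;Tyrobp-/- against Tyrobp-/-, leaving out each sample gave mt-Co1 -1.22 to 0.83, mt-Cytb -1.14 to 1.03 and mt-Nd2 -1.23 to 1.24, positive without replicate 20, and for the interaction without both highest libraries mt-Co1 was 0.058 and mt-Cytb 0.15. The cause of these changes was not tested. The values for the share (34) and make-up (72) moved by less than 1 SD of their group under every alternative, an SD that includes the library left out: the mean share of Tyrobp-/- was 1.08% without replicate 20. Without both highest libraries the correlation with the marker level was 0.597 for pan-neuronal, 0.209 for border-associated macrophage and 0.227 for endothelial genes, against 0.805, 0.517 and 0.467 over all samples. Groups of 3 to 5 samples, in which 1 library could decide an estimate, limit every comparison, and mRNAs with nuclear copies carry uncertain levels.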
